A study of Arabidopsis thaliana with 12 samples.

Results

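Heat shock protein genes were followed in Arabidopsis thaliana seedlings labelled as mutants of 1 of 3 genes for proteins with a methyl-CpG-binding domain. The members are 4 genes chosen by name, with earlier results of these data known. AT5G51440 and AT2G29500 are listed as small heat shock proteins. The others are AT5G48570, an FKBP for which RefSeq gives the synonym ROF2, and HSA32 (AT4G21320). Each had 1 probe set assigned to it alone, so 4 of the 13350 genes with such a probe set are described here. The files name AT5G51440 and AT2G29500 by locus only.

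The study profiled whole 10-day-old seedlings of ecotype Col-0 grown in MS media, in 4 genotypes of 3 biological replicates each. These were wild type and mutants mbd4, mbd6 and mbd11, each carrying a T-DNA insertion, 12 arrays in all. The labels give neither a heat treatment nor allele names, and they list 1 mutant for each gene. Values are log2 intensities deposited after RMA, and every change is a difference of log2 values with n = 3 in each group.

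Heat shock proteins are chaperones that keep other proteins from clumping when heat, oxidation or other stress unfolds them. Small heat shock proteins bind partly unfolded proteins and hold them, and the HSP70, HSP90 and HSP100 machines then refold or disaggregate them. Heat shock transcription factors switch most of these genes on together, so that many are low in unstressed seedlings. FKBPs of the ROF type carry a peptidyl-prolyl isomerase domain and bind HSP90, and HSA32 is required in Arabidopsis to keep acquired thermotolerance long after a first heat treatment.

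The mbd11 arrays stood apart from the other 9, with correlations of 0.900 to 0.960 to them, while the lowest correlation among those 9 was 0.979. The median within-group SD of a probe set was 0.353 in mbd11 and 0.112 to 0.134 in the other genotypes, and mbd11 replicate 2 had the narrowest interquartile range (2.84, against 3.58 to 3.94 on the other 11 arrays). The mean 3′ minus 5′ difference of the plant actin, GAPDH and ubiquitin control probe sets, a measure of RNA integrity and labelling, was 2.42 to 2.88 in mbd11, 1.75 to 2.04 in wild type, 1.85 to 1.94 in mbd6, and 1.57, 1.70 and 2.69 on mbd4 replicates 1 to 3. Seedling markers were present: the mean log2 level of 3 of 9 listed shoot markers was 13.04 to 13.10 in wild type, 12.95 to 13.00 in mbd4, 12.83 to 12.92 in mbd6 and 11.90 to 12.23 in mbd11. That of 3 of 10 root markers was 8.44 to 8.52, 8.21 to 8.42, 8.16 to 8.32 and 7.34 to 8.09 in the same order. Every mutant array thus lay below every wild-type array on both means, but not on each marker. RCA was below wild type on all mutant arrays. LHCB4.1 was at 13.15 to 13.25 in mbd6, above its 13.04 to 13.14 in wild type, and EXPA7 overlapped wild type in each mutant. Of the listed seed markers, 0 of 5 were measured. Of the 3 mutated genes themselves, 0 had a probe set assigned to it alone, so the labels were not checked against them.

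All 4 members rose in mbd11, AT5G51440 also rose in mbd4, and 0 of 4 passed in mbd6. The test is limma's moderated test over all 12 arrays and 22746 probe sets, with Benjamini-Hochberg adjustment and a threshold of 0.05. In mbd11 the 4 of 4 called higher stand beside 20.4% of all probe sets called higher in that comparison. In mbd4 the 1 of 4 stands beside 1.53%. In mbd6 the 0 of 4 called in either direction stand beside 6.91%. AT5G51440 alone had an unadjusted limma p under 0.05 there, a looser threshold whose share over all probe sets is not given here. Since tissue was taken whole, more cells with a transcript and more transcript per cell cannot be told apart. The 3 comparisons share the wild-type arrays. Since the members were chosen with earlier results known, these counts and shares are no independent test of them.

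AT5G51440, a small heat shock protein gene, was at 4.74, 4.86 and 4.77 in wild-type replicates 1 to 3. It was at 6.74, 6.63 and 6.35 in mbd4, at 5.89, 5.76 and 5.64 in mbd6, and at 7.84, 6.26 and 7.54 in mbd11. Every mutant array lay above every wild-type array, and the 3 mbd6 arrays lay below all mbd4 and mbd11 arrays. The mbd4 and mbd11 ranges overlapped through mbd11 replicate 2.

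From a wild-type mean of 4.79 ± 0.06 (SD, n = 3), AT5G51440 rose in mbd4 by 1.78 (SE 0.31; 95% interval 1.12 to 2.44), or 3.44-fold (limma adjusted p = 0.00735). In mbd11 it rose by 2.42 (SE 0.31; 1.76 to 3.09), or 5.36-fold (limma adjusted p = 8.1e-05). In mbd6 it differed by 0.97 (0.31 to 1.64) and did not pass (limma adjusted p = 0.0859). Whether it passed changed with the arrays used and their weights, and the cause was not tested. Of all probe sets, 6.91% were called in this comparison in either direction, and 18.1% in the fit without the mbd11 arrays. The mbd11 arrays enter the shared estimate of spread. The same change passed without them (adjusted p = 8.9e-05), without mbd11 replicate 1 or 2 alone (0.0388 and 0.000205), with only the 6 arrays compared (5.74e-05) and with array weights set per genotype (3.97e-05). It ranged up to an adjusted p of 0.271 over the other alternatives.

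AT2G29500, the other small heat shock protein gene among the members, was at 5.17, 5.43 and 5.12 in wild type. It was at 5.86, 5.94 and 6.19 in mbd4, at 6.03, 5.44 and 5.54 in mbd6, and at 7.50, 6.77 and 7.39 in mbd11. The mbd11 arrays lay above the other 9, and the highest wild-type array lay just under the lowest mbd6 array.

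AT2G29500 rose in mbd11 by 1.98 (SE 0.21; 95% interval 1.52 to 2.44), or 3.95-fold, from 5.24 ± 0.17 to 7.22 ± 0.39 (SD, n = 3; limma adjusted p = 2.78e-05). In mbd4 it differed by 0.76 (0.30 to 1.22; limma adjusted p = 0.101). The mbd4 difference passed without mbd11 replicate 2 (adjusted p = 0.0107), without all mbd11 arrays (0.0088), with only the 6 arrays compared (0.00546) and with weights per genotype (0.00407), within a range that reached 0.382. In mbd6 it differed by 0.43 (-0.02 to 0.89; limma adjusted p = 0.342) and passed with weights per genotype (0.0379). Without mbd6 replicate 1 it was 0.25 (0.866).

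**Figure D1:**
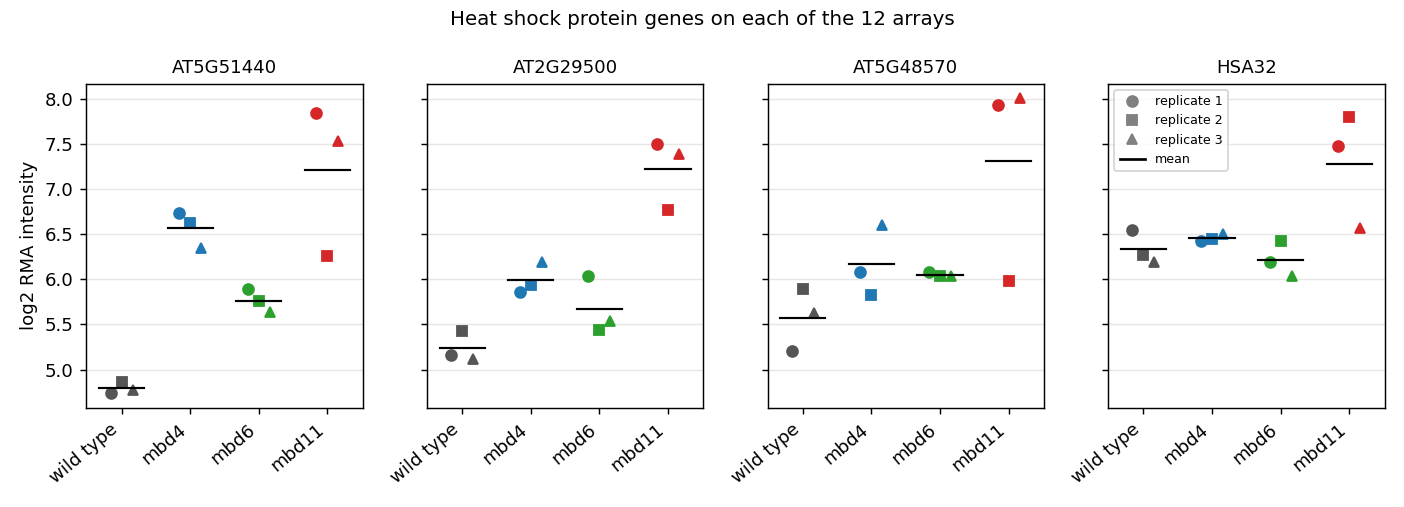
Log2 RMA intensity (y axis) of AT5G51440, AT2G29500, AT5G48570 and HSA32 on each array, by genotype (x axis). Symbols mark the replicate and lines the mean of 3 arrays. AT5G51440 is above wild type on all 9 mutant arrays, and mbd11 replicate 2 (square) is the lowest mbd11 array for 3 genes and the highest for HSA32.

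AT5G48570, the FKBP gene, was at 5.21, 5.90 and 5.62 in wild type. It was at 6.08, 5.83 and 6.60 in mbd4, at 6.08, 6.04 and 6.04 in mbd6, and at 7.93, 5.98 and 8.01 in mbd11. Replicates 1 and 3 of mbd11 were the highest of all 12 arrays, while replicate 2 lay within the range of mbd4 and below all mbd6 arrays.

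The AT5G48570 change in mbd11 was 1.73 (SE 0.43; 95% interval 0.80 to 2.66), or 3.32-fold, from 5.58 ± 0.35 to 7.31 ± 1.15 (SD, n = 3; limma adjusted p = 0.0069). The SE and interval use an estimate of spread shared by all genotypes. For AT5G48570 the SD was 1.15 in mbd11 and 0.025 to 0.395 in the others, so they do not carry the mbd11 spread in full. Without mbd11 replicate 2 the change was 2.39 (adjusted p = 2.89e-06). With the 3′ minus 5′ difference as a covariate it was 1.04 and did not pass (adjusted p = 0.159), and restricting the fit to the 6 arrays compared gave 0.0501. In mbd4 and mbd6 AT5G48570 differed by 0.60 (-0.33 to 1.52; limma adjusted p = 0.779) and 0.48 (-0.45 to 1.40; limma adjusted p = 0.758). The mbd6 difference passed with only the 6 arrays compared (0.046) and was 0.29 without wild-type replicate 1 (0.989). The mbd4 difference was 0.38 without mbd4 replicate 3 (0.999).

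HSA32, the heat-stress-associated gene of thermotolerance memory, was at 6.55, 6.27 and 6.19 in wild type. It was at 6.42, 6.45 and 6.50 in mbd4, at 6.20, 6.42 and 6.04 in mbd6, and at 7.48, 7.79 and 6.57 in mbd11. In mbd4 and mbd6 it overlapped wild type, and the lowest mbd11 array, replicate 3, lay just above the highest wild-type array.

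HSA32 rose in mbd11 by 0.94 (SE 0.25; 95% interval 0.40 to 1.49), or 1.92-fold, from 6.34 ± 0.19 to 7.28 ± 0.64 (SD, n = 3; limma adjusted p = 0.0103). The rise was 0.69 without mbd11 replicate 2 (adjusted p = 0.0205), and it missed the threshold when the fit held the 6 wild-type and mbd11 arrays alone (0.0669). With the 3′ minus 5′ difference as a covariate it was 1.17 (0.0282). HSA32 differed by 0.12 (-0.43 to 0.66) in mbd4 and by -0.12 (-0.67 to 0.43) in mbd6, with limma adjusted p = 1 and 0.962.

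In the order of their means, AT5G51440, AT2G29500 and AT5G48570 ran from wild type through mbd6 and mbd4 to mbd11, and HSA32 from mbd6 through wild type and mbd4 to mbd11. These orders were taken from the means being compared, so they are a description. Of the 12 pairs of neighbours, limma called 3, all between mbd11 and mbd4, where 22.5% of all probe sets were called higher. Between mbd6 and mbd4, limma called 0 of 4 members, beside 2.05% of all probe sets called in either direction. At an unadjusted p under 0.05, whose share over all probe sets is not given here, 1 of 4 passed. That was AT5G51440, lower in mbd6 by 0.81 on the log2 scale (difference -0.81; 95% interval -1.47 to -0.14; limma adjusted p = 0.268), with no overlap between the 3 mbd6 and 3 mbd4 arrays. Without mbd11 replicate 2, or without all mbd11 arrays, the same difference passed (adjusted p = 0.00217 and 0.000926), as it did with only the 6 arrays compared (0.00557) and with weights per genotype (0.00165). Its adjusted p reached 0.581 over the other alternatives.

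Between mbd11 and mbd4, 3 of 4 members were called higher in mbd11, beside 22.5% of all probe sets. AT2G29500 was higher by 1.22 (95% interval 0.76 to 1.68; limma adjusted p = 0.000775), and HSA32 by 0.82 (0.28 to 1.37; limma adjusted p = 0.0201). Leaving out mbd4 replicate 1 or 2, or mbd11 replicate 1, ended the HSA32 call (adjusted p = 0.0571, 0.0553 and 0.0537). AT5G48570 was higher by 1.13 (0.21 to 2.06; limma adjusted p = 0.0488), a call that ended when any 1 of the 11 arrays other than mbd11 replicate 2 was left out (0.0507 to 0.158). Without that replicate the difference was 1.80 (2.84e-05), and with the 3′ minus 5′ covariate it was 0.58 (0.363). AT5G51440 differed by 0.64 (-0.02 to 1.31; limma adjusted p = 0.105), by 1.12 without mbd11 replicate 2 (5.15e-05) and by 0.33 without mbd11 replicate 1 (0.355).

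Between mbd11 and mbd6, 4 of 4 members were called higher in mbd11, beside 22.5% of all probe sets. The differences were 1.45 for AT5G51440 (95% interval 0.79 to 2.11), 1.55 for AT2G29500 (1.09 to 2.01), 1.25 for AT5G48570 (0.33 to 2.18) and 1.06 for HSA32 (0.52 to 1.61). Their limma adjusted p-values were 0.00272, 0.000147, 0.033 and 0.00531. AT5G48570 missed the threshold when mbd6 replicate 1, 2 or 3 was left out (adjusted p = 0.0763, 0.0773 and 0.0786), as when mbd11 replicate 1 or 3 was (0.106 and 0.109). Leaving out mbd11 replicate 2 gave 1.92 (1.58e-05), and the 3′ minus 5′ covariate gave 0.60 (0.383).

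**Figure D2:**
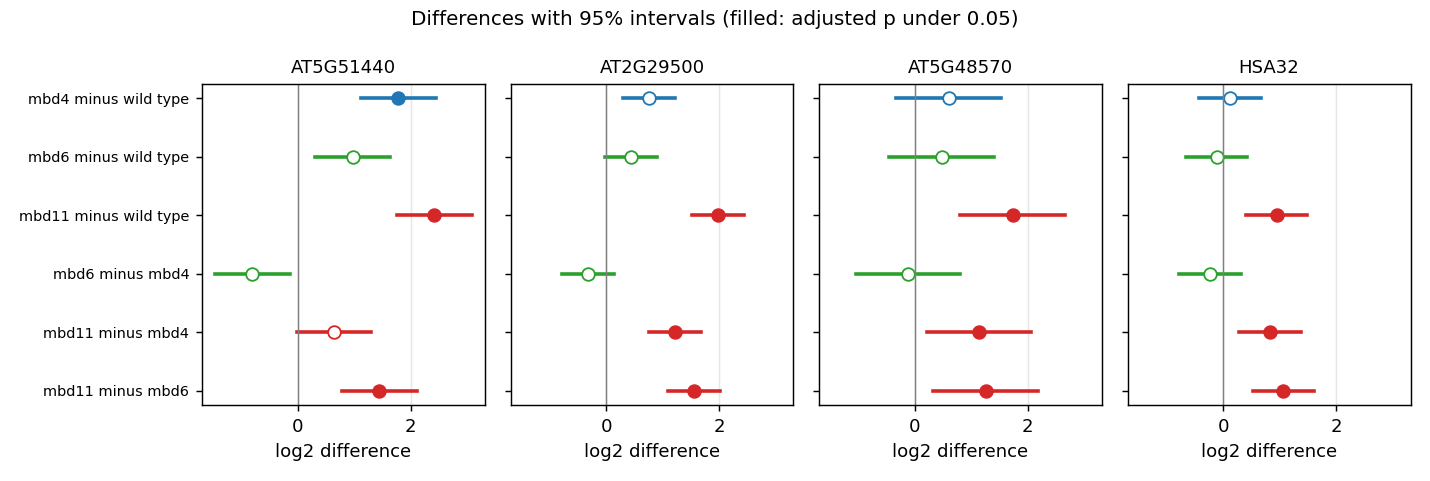
Log2 difference (x axis) of each member in the 6 comparisons (y axis), with the 95% interval of limma's moderated fit as a line, coloured by the first genotype of the comparison. Filled points passed an adjusted p of 0.05. For each gene the largest rise from wild type is in mbd11, and the AT5G51440 rise of 1.78 in mbd4 is the other filled point among the comparisons with wild type.

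Replicate 2 of mbd11, the array with the narrowest range of values, did not shift the members alike. Set against the wild-type mean, replicates 1, 2 and 3 of mbd11 differed by 3.05, 1.47 and 2.75 for AT5G51440 and by 2.26, 1.53 and 2.15 for AT2G29500. For AT5G48570 they differed by 2.36, 0.40 and 2.43, and for HSA32 by 1.15, 1.46 and 0.23. Replicates 1 and 3 were thus close to each other for 3 genes and apart for HSA32. The groups did not overlap for 4 of 4 members in mbd11, all of them higher there, beside 47.7% of all probe sets not overlapping in either direction. In mbd4 2 of 4 members did not overlap, beside 28.5%, and in mbd6 3 of 4, beside 36.1%, again all higher in the mutant. Of all 22746 probe sets, 5681 were higher without overlap in mbd11, 2907 in mbd4 and 3763 in mbd6.

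Probe sets that were dim in wild type tended to be brighter in mbd11. Among all probe sets in the fifth of wild-type levels that holds AT5G51440 and AT2G29500 (3.60 to 5.25), the median mbd11 change was 0.29 and 22.8% were called higher. In the fifth that holds AT5G48570 and HSA32 (5.25 to 6.81) the median was -0.03 and 20% were called higher. With the 3′ minus 5′ difference as a covariate AT5G51440 rose by 2.46 (adjusted p = 0.00276) and AT2G29500 by 1.68 (0.00165). The part of this measure in the mbd11 changes was otherwise not tested, nor was that of the shoot and root marker levels in the changes of any mutant.

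Other heat-response genes were read from a list of 85, chosen with earlier results known and grouped by general knowledge of the loci. Of these, 19 had a probe set assigned to them alone, the 4 members included. The heat shock transcription factor genes (0 of 22) and chaperonin genes (0 of 5) of the list had none. Without the members, 9 of the other 15 genes rose and 1 fell in mbd11, with a median change of 0.49, beside a median of 0.12 over all probe sets and 20.4% called higher and 19.7% lower. In mbd4, 2 of 15 rose and 0 fell (median 0.14), beside 1.53% called higher, 0.769% lower and a median of -0.03 over all probe sets. In mbd6, 1 of 15 rose and 0 fell (median 0.08), beside 6.91% called in either direction and a median of -0.03. Of all 22746 probe sets, 910 were called higher and 662 lower in mbd6. With the members the counts were 13 higher and 1 lower of 19 in mbd11, 3 higher in mbd4 and 1 higher in mbd6. Without all mbd11 arrays 7 of 19 passed in mbd4 and 3 of 19 in mbd6, beside 9.72% and 18.1% of all probe sets called in either direction in that fit. Without mbd11 replicate 2 it was 6 and 3, beside 6.44% and 13.9%, and without mbd11 replicate 1 it was 2 of 19 in mbd6, beside 8.05%.

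Small heat shock protein genes made up 9 of the 19, and 8 of these 9 rose in mbd11, beside 20.4% of all probe sets. With the 3′ minus 5′ difference as a covariate 3 of the 8 did not pass, AT1G54050 (0.87; adjusted p = 0.0507), AT1G53540 (0.56; 0.0779) and AT1G52560 (0.49; 0.0699), and 12.2% of all probe sets were called higher. The 3 largest rises were those of the members AT5G51440 and AT2G29500 and of AT2G19310, which rose by 1.51 (SE 0.18; limma adjusted p = 6.33e-05). AT5G37670 rose by 1.30, AT1G54050 by 1.24 and AT4G21870 by 1.15 (limma adjusted p = 0.0029, 0.00152 and 0.000153). For AT5G37670, mbd11 replicate 2 was at 6.96 and replicates 1 and 3 at 5.67 and 5.80. Its rise was 0.90 without replicate 2, and it passed with any 1 array left out (limma adjusted p up to 0.0143). AT1G53540 and AT1G52560, both under 4 on all wild-type arrays, rose by 0.49 and 0.45 (limma adjusted p = 0.0276 and 0.0193). With values under 4 raised to 4 these became 0.10 and 0.21 and did not pass, and neither passed when wild-type replicate 1 (adjusted p = 0.0886 and 0.0657) or 2 (0.0582 and 0.0642) was left out, nor AT1G53540 when replicate 3 was (0.0658). Leaving out mbd11 replicate 2 gave 0.29 for AT1G53540 (0.0467). ATHSP22.0 differed by -0.05 (limma adjusted p = 0.82).

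In mbd4, AT4G21870 rose by 1.26 (SE 0.16, limma adjusted p = 0.000977), beside AT5G51440 the only call among the 9 small heat shock protein genes there. Over all probe sets 1.53% were called higher and 0.769% lower in mbd4. AT4G21870 was at 7.90, 8.03 and 7.93 in wild type, at 9.09, 9.17 and 9.37 in mbd4, at 7.96, 8.31 and 8.31 in mbd6 and at 9.17, 8.82 and 9.31 in mbd11. The mbd4 and mbd11 arrays lay above all others, and the mbd6 arrays overlapped wild type. It was lower in mbd6 than in mbd4 by 1.02 (difference -1.02; limma adjusted p = 0.00607), and between mbd11 and mbd4 it differed by -0.11 (limma adjusted p = 0.579). In mbd6, 0 of 9 small heat shock protein genes passed in limma's test, beside 6.91% of all probe sets called in either direction. AT5G51440 alone had an unadjusted p under 0.05, a threshold whose share over all probe sets is not given here.

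**Figure D3:**
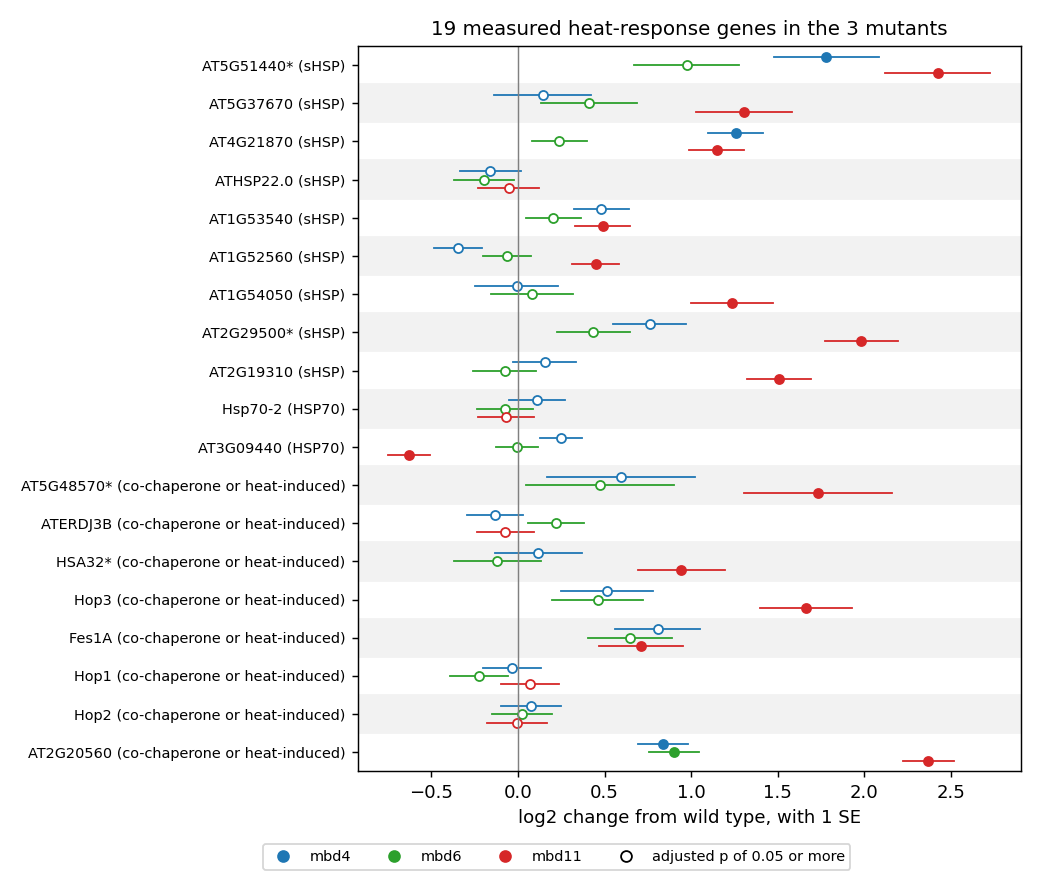
Log2 change from wild type (x axis) of the 19 measured heat-response genes (y axis) in mbd4, mbd6 and mbd11, with lines of 1 SE. Asterisks mark the 4 members, and open points had an adjusted p of 0.05 or more. Of the 9 small heat shock protein genes, 8 have filled mbd11 points above 0, and AT3G09440 has the only filled point below 0.

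Among 8 co-chaperone and heat-induced genes, 5 rose in mbd11, beside 20.4% of all probe sets called higher. In mbd4 1 of 8 rose, beside 1.53%, and in mbd6 1 of 8, beside 6.91% called in either direction (910 of 22746 called higher). AT2G20560, on the list of co-chaperones, was called in each of the 3 mutants, whose comparisons share the wild-type arrays. It was at 5.04, 5.11 and 4.95 in wild type, at 6.01, 5.66 and 5.94 in mbd4, at 5.96, 5.85 and 5.99 in mbd6 and at 7.61, 7.42 and 7.18 in mbd11. All mutant arrays lay above wild type, and the mbd11 arrays lay above all others. It rose by 0.84 in mbd4 (SE 0.15; limma adjusted p = 0.00793), 0.90 in mbd6 (limma adjusted p = 0.00231) and 2.37 in mbd11 (limma adjusted p = 1.21e-06). In mbd4 it missed the threshold when wild-type replicate 3 or mbd4 replicate 1 was left out (adjusted p = 0.0556 and 0.0519).

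Hop3, for a co-chaperone that links HSP70 and HSP90, rose in mbd11 by 1.66 (SE 0.26; limma adjusted p = 0.000405), while its relatives Hop1 and Hop2 differed by 0.07 and -0.00 (limma adjusted p = 0.743 and 0.987). Fes1A, for a nucleotide exchange factor of HSP70, rose in mbd11 by 0.71 (limma adjusted p = 0.034), with mbd11 replicate 2 within the wild-type range. Leaving out wild-type replicate 1, 2 or 3 ended that call (adjusted p = 0.0896, 0.0651 and 0.0872), as did leaving out mbd11 replicate 1 or 3 (0.108 and 0.1). Leaving out mbd11 replicate 2 gave 1.08 (1.31e-05). Fes1A differed by 0.81 in mbd4 and 0.65 in mbd6 with no overlap with wild type (limma adjusted p = 0.137 and 0.168), and both passed without mbd11 replicate 2 (0.000415 and 0.000969). ATERDJ3B, for a DnaJ protein of the endoplasmic reticulum, differed by -0.13, 0.22 and -0.07 in mbd4, mbd6 and mbd11 (limma adjusted p = 0.952, 0.655 and 0.734).

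Of 25 listed HSP100, HSP90 and HSP70 genes, 2 were measured, both for HSP70, so the HSP90 and HSP100 genes were not seen. Limma called 0 of the 2 higher in a mutant, also at an unadjusted p under 0.05, and 1 was called lower. AT3G09440 fell by 0.63 in mbd11 (change -0.63; SE 0.12; limma adjusted p = 0.00139), from 10.58 ± 0.07 to 9.96 ± 0.05 (SD, n = 3). In the fifth of probe sets with the highest wild-type levels, where it lies, the median mbd11 change was -0.38 and 44.9% were called lower. In mbd4 AT3G09440 differed by 0.25 with no overlap with wild type (limma adjusted p = 0.493), and in mbd6 by -0.005 (limma adjusted p = 0.999). Hsp70-2 differed by 0.11, -0.08 and -0.07 in mbd4, mbd6 and mbd11 (limma adjusted p = 0.975, 0.963 and 0.748).

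A list of 11 genes known to respond to failing mitochondria, where small heat shock proteins can also be induced, had 5 measured genes. This list too was chosen with earlier results known. In mbd4 3 of 5 rose (1.53% of all probe sets called higher) and in mbd6 1 of 5 (6.91% called in either direction, 910 of 22746 called higher). In mbd11 3 of 5 rose and 1 fell (20.4% called higher and 19.7% lower). AT2G21640 rose by 1.58 in mbd4 (SE 0.19; limma adjusted p = 0.000709) and by 1.31 in mbd11 (limma adjusted p = 0.000203), and differed by 0.33 in mbd6 (limma adjusted p = 0.472). AT2G21640 was lower in mbd6 than in mbd4 by 1.25 (difference -1.25; limma adjusted p = 0.00502), as AT4G21870 was. AT5G09570 rose by 1.10, 0.90 and 1.18 in mbd4, mbd6 and mbd11 (limma adjusted p = 0.00727, 0.0118 and 4e-04). Leaving out wild-type replicate 3 ended its mbd4 and mbd6 calls (adjusted p = 0.0512 and 0.0688), and leaving out mbd6 replicate 1 ended the latter (0.06).

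AT2G41730, whose probe set has the suffix for possible cross-hybridization, rose by 1.15 in mbd4 and 1.97 in mbd11 (limma adjusted p = 0.0196 and 4.95e-05) and differed by 0.60 in mbd6 (limma adjusted p = 0.184). In mbd4 it missed the threshold when any single wild-type or mbd4 array was left out (adjusted p = 0.0618 to 0.101). NDB2, for an alternative NAD(P)H dehydrogenase of mitochondria, fell in mbd11 by 1.27 (change -1.27; limma adjusted p = 0.00991), with mbd11 replicate 2 at 5.60 and replicates 1 and 3 at 7.13 and 7.23. Without mbd11 replicate 2 the change was -0.74 (adjusted p = 0.00181), and it did not pass with the 3′ minus 5′ difference as a covariate (0.0727). NDB4 differed by 0.28, 0.21 and 0.16.

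**Figure D4:**
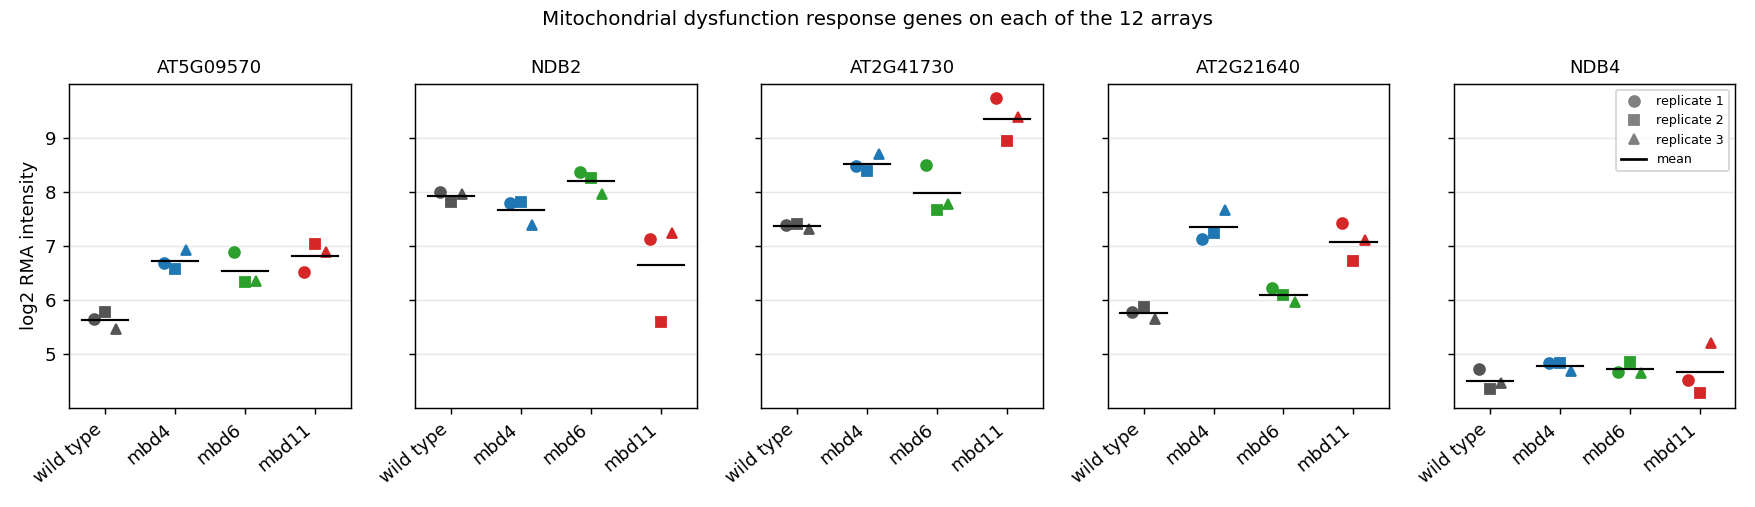
Log2 RMA intensity (y axis) of the 5 measured genes of the mitochondrial dysfunction list on each array, by genotype (x axis). Symbols mark the replicate and lines the mean of 3 arrays. The mbd4, mbd6 and mbd11 arrays of AT5G09570, AT2G41730 and AT2G21640 all lie above all wild-type arrays, and NDB2 is lowest on mbd11 replicate 2.

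The genes most like the members were sought by Pearson correlation with the mean of the 4 scaled members, as a description. Over the 12 arrays, which hold the mbd11 arrays and share one normalization, the 5 closest single-gene probe sets were AT5G11070 (r = 0.992), AT3G61260 (0.987), AT1G15010 (0.973), AT2G32020 (0.972) and AT4G23910 (0.967). AT5G11070 averaged 8.47 in wild type, 9.17 in mbd4, 8.85 in mbd6 and 9.93 in mbd11. Of the members, AT2G29500 lay closest to their mean (r = 0.985), followed by AT5G51440 (0.920), AT5G48570 (0.882) and HSA32 (0.721). Each member is itself part of that mean, which raises its r, so these values do not compare with those of the other genes.

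Over the 9 arrays without mbd11 the 5 closest were AT3G16190 (r = 0.986), AT1G72820 (0.977), AT5G13240 (0.971), AT1G68850 (0.970) and AT1G55530 (0.967), and 0 of them were among the 5 found with the mbd11 arrays. AT1G72820 averaged 7.73 in wild type, 8.09 in mbd4, 7.87 in mbd6 and 6.94 in mbd11, so it did not share the members' high mbd11 level. On these 9 arrays HSA32 correlated at 0.441 with the members' mean, of which it is part, and AT5G51440 and AT2G29500 likewise at 0.906 and 0.919.

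**Figure D5:**
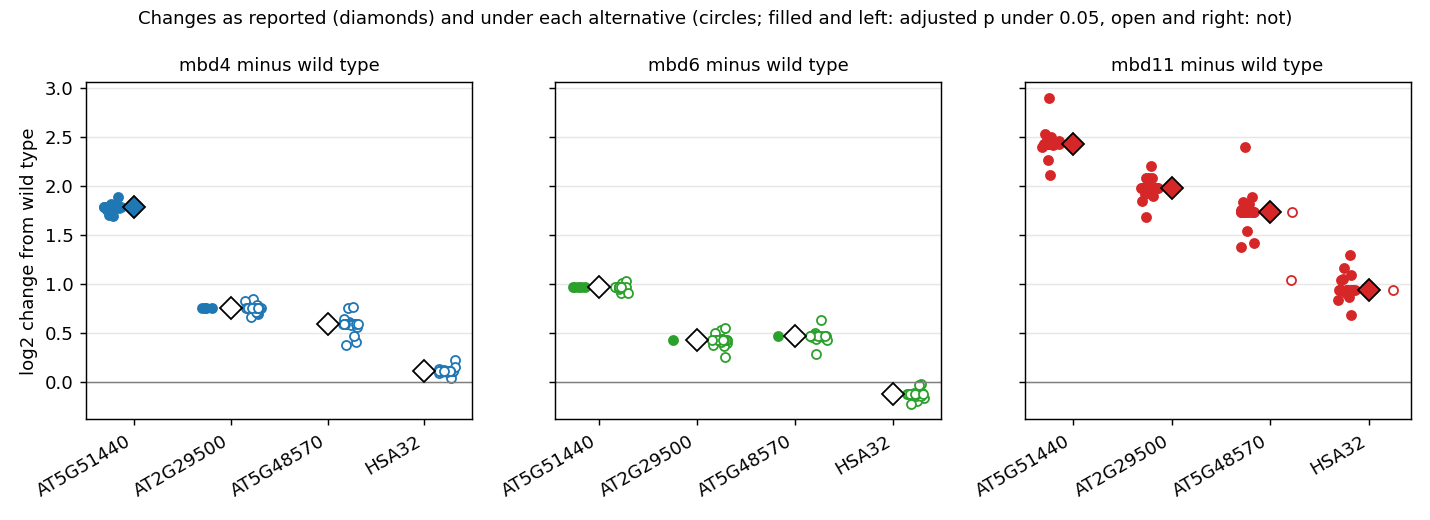
Log2 change from wild type (y axis) of each member (x axis) in mbd4, mbd6 and mbd11, as reported (diamonds) and under each alternative fit (circles). Filled circles on the left passed an adjusted p of 0.05 and open circles on the right did not. The AT5G51440 changes in mbd6 lie between 0.91 and 1.04 whether or not they passed, and the lowest mbd11 value of AT5G48570, 1.04, is an open circle.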

How the data were processed

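The deposited values are log2 intensities made by the authors with RMA in R 2.11, per the submitters' processing notes. Per the labels' protocols, total RNA of whole seedlings was labelled by a 3′ IVT method. No other processing details or scan dates are given in the sources used here. The table held 22810 probe sets and 0 missing values, and 64 control probe sets were left out of the tests.

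A limma model with 1 mean per genotype over the 12 arrays gave the 6 comparisons with 8 residual and 4.43 prior degrees of freedom. Its two-sided p-values were adjusted over the 22746 probe sets by Benjamini-Hochberg, with 0.05 as threshold. The number of arrays limits the precision. Probe sets were named through the platform's gene annotation, 13513 of them with 1 gene, and all 4 members matched RefSeq. Members and gene lists were chosen with earlier results of these data known. Every list gene called in a mutant was named, at most 3 per direction where a list had more than 6 calls, plus the 5 genes most like the members. That search was made over 12 arrays and over the 9 without mbd11. Other list genes were named after their values were seen, to account for each measured gene. Alternatives were the arrays used, each array left out, weights per genotype, a 3′ minus 5′ covariate, a replicate block, median centring, quantile normalization, a minimum mean of 5, a floor of 4, a trended robust prior, and adjustment over single-gene probe sets. A planned promoter motif search was not run. The fit was tested on simulated data. Tests ran in limma 3.58.1 under R 4.3.3, and figures were drawn with matplotlib 3.10.9, pandas 2.3.3 and numpy 2.4.6 (Python 3.11.15).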

Additional observations from a re-analysis of the deposited data

How the results depend on the processing

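The number of the 4 members called in mbd4 was 2 with only the 6 arrays compared, without all mbd11 arrays and with weights per genotype, and 1 to 2 when 1 array was left out. In mbd6 it was 2 with only the 6 arrays compared, 1 without all mbd11 arrays and 2 with weights, and 0 to 1 with 1 array left out. In mbd11 it was 2 with only the 6 arrays compared and 4 with any 1 array left out. Between mbd6 and mbd4 it was 1 under the first 3 of these settings and 0 to 1 with 1 array left out. Between mbd11 and mbd4 it was 1 with only the 6 arrays compared, with weights and with a floor of 4, and 1 to 4 with 1 array left out. Of the 19 heat-response genes, the calls in mbd4 were 7 under each of those first 3 settings and 2 to 6 with 1 array left out. In mbd6 they were 4, 3 and 6, and 1 to 3 with 1 array left out. In mbd11 they were 9 with only the 6 arrays compared, 9 with the 3′ minus 5′ covariate, and 11 to 14 with 1 array left out. Over all probe sets the calls in either direction moved too: with only the 6 arrays compared, without all mbd11 arrays and with weights mbd4 had 8.81%, 9.72% and 10.5%, mbd6 had 19.9%, 18.1% and 21.5%, and there were 7.82%, 10.9% and 10.8% between mbd6 and mbd4. In mbd11 they were 22.4% with the 6 arrays and 27.6% with the covariate. Between mbd11 and mbd4 they were 19.8%, 22% and 30.8% with the 6 arrays, weights and the floor. With 1 array left out they were 1.14% to 6.44% in mbd4, 3.55% to 13.9% in mbd6, 30.4% to 47.3% in mbd11, 0.69% to 7.2% between mbd6 and mbd4, and 30.2% to 49.1% between mbd11 and mbd4. The cause of these shifts was not tested. The AT5G48570 difference between mbd6 and mbd4 turned from -0.12 to 0.10 without mbd4 replicate 3 (range with 1 array left out -0.29 to 0.10; limma adjusted p = 1), the only change of sign among 540 fits of members, of which 488 kept direction and side of the threshold. With the replicate number as a block the members called stayed at 1, 0 and 4 in mbd4, mbd6 and mbd11, and 0, 3 and 4 between mutants. Deviations from the group mean correlated at -0.38 to 0.22 between same-numbered arrays and at -0.395 to 0.507 between differently numbered ones. Of the 12 arrays, 2 correlated best with their own number. Whether arrays of 1 number shared a batch was not tested. Of 30 pairs of a list gene and a mutant that passed under no setting, 12 changed sign under at least 1. The 3 arrays a group and the wider mbd11 spread limit what small differences in mbd4 and mbd6 can show.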
